A study of Bos taurus with 6 samples.

Results

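The ADAM, ADAMTS and MMP proteases and the TIMPs were read in bovine granulosa cells with and without fibroblast growth factor 18 (FGF18). Members were taken by gene symbol on the array, as ADAM followed by a number, any symbol beginning with ADAMTS, MMP followed by a number, or TIMP followed by a number. This gave 60 of 15229 genes, and each was read by its brightest probe. They were 16 ADAMs, 18 ADAMTS proteases, 5 ADAMTS-like proteins, 17 MMPs and 4 TIMPs.

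ADAMs and MMPs are zinc-dependent proteases that cut proteins at the cell surface and in the matrix around cells. ADAMs release growth factors, cytokine receptors and adhesion proteins from membranes, ADAMTS proteases cut proteoglycans and process procollagens, and MMPs degrade collagens, gelatins and other matrix proteins. TIMPs are the secreted inhibitors that bind their active sites. In the ovary these enzymes are known for the remodelling of the follicle wall before ovulation and of the matrix that holds the cumulus around the oocyte.

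Granulosa cells came from follicles of 2 to 6 mm of Holstein crossbred cattle from an abattoir, and were cultured without serum for 5 days. FSH and insulin, each at 10 ng/ml, were present in both groups. Treated cells received FGF18 at 10 ng/ml for 2 h, and control cells were left untreated. The source name of the controls ends in T0, and whether they were harvested at the start or the end of the 2 h is not given. RNA of both was hybridised on 6 two-colour arrays in 3 biological replicates, with 1 array for each dye orientation in each replicate. No animal numbers are given, so p-values measure the spread between these 3 preparations.

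The comparison asks which transcripts of this protease system differ after 2 h of FGF18. A spot was taken as above background when its raw intensity passed the negative control spots' mean plus 2 SD, and a gene when this held on 3 or more of the 6 arrays for FGF18 or for control. Of the 60 genes 42 did so, against 12200 of all 15229 genes. In all 12 channels 25 of the 42 were above background, or 59.5% against 69.7% of all genes above background. Of all probes, 45.7% to 73.5% were above background in a channel. Below, a ratio is the log2 of FGF18 over control. Each replicate's value is the average of its 2 arrays, and a mean is given ± SD over the 3 replicates. Of 12 granulosa markers 11 were above background, FOXL2 not among them, and CYP19A1, aromatase, was so on 2 arrays for FGF18 and 4 for control. Markers of theca (8 of 8), endothelium (5 of 6), leukocytes and blood (7 of 8) and oocyte (4 of 6) were also above background in part. Their summed normalized intensity ran from 14673 to 36180 with FGF18 and 12861 to 38886 in control for theca, and from 2826 to 3350 and 2547 to 4607 for leukocytes and blood. For endothelium, where PECAM1 was below background on all arrays, it ran from 675 to 749 and 685 to 758, and for the oocyte, where GDF9 was, from 456 to 958 and 471 to 1215. That of granulosa markers ran from 53070 to 77372 and 51260 to 80939. The part of other cells in any ratio below was not tested, and fewer cells of a type and less RNA per cell cannot be told apart.

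No protease or inhibitor passed the test. With limma and Benjamini-Hochberg adjustment over all genes, 0 of the 42 had an adjusted p under 0.05, as had 0% of all genes. At an unadjusted p under 0.05 there were also 0 of 42, against 3.49% of all genes, and the smallest, 0.066, belonged to ADAMTS6. The median ratio was -0.06 over the 42 genes and -0.01 over all genes above background. Ratios were below 0 for 35 of the 42, or 83.3%, against 52.4% of all genes. By replicate, 21, 30 and 25 were below 0 in replicates 1, 2 and 3, or 50%, 71.4% and 59.5%, against 50.2%, 50.7% and 49.1% of all genes. Without replicate 2 it was 25 of 42, or 59.5%, against 52.1% of all genes. Without replicate 1 it was 31, or 73.8% against 49.4%, and without replicate 3 it was 32, or 76.2% against 53.3%. With median centring it was 33, or 78.6% against 47.7%, and with the authors' deposited ratios 35, or 83.3% against 52.6%. In each dye orientation alone it was 27, or 64.3%, against 50.8% of all genes with FGF18 in Cy5 and 48% on the swapped arrays. None of these shares was tested.

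Few members kept 1 direction. In all 3 replicates 2 genes were higher, or 4.76%, against 12.5% of all genes, and 8 were lower, or 19%, against 11.1%. On all 6 arrays 2 were higher, MMP14 and ADAMTS6, and 1 was lower, ADAMTSL5, against 5.39% and 3.11% of all genes. The share on all 6 arrays was near that of the array. In 37 of the 42 genes, or 88.1% against 81.1% of all genes above background, the SD between replicates was larger than the mean ratio. For 31 genes, or 73.8% against 63.7%, the 95% interval lay within 1.5-fold either way. Some of these genes were near background, such as ADAMTS2 and ADAM10, with raw spots from 99 to 287 and from 112 to 284. Thresholds ran from 94 to 271. For genes this dim such an interval does not exclude a change of 1.5-fold in RNA.

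**Figure D1:**
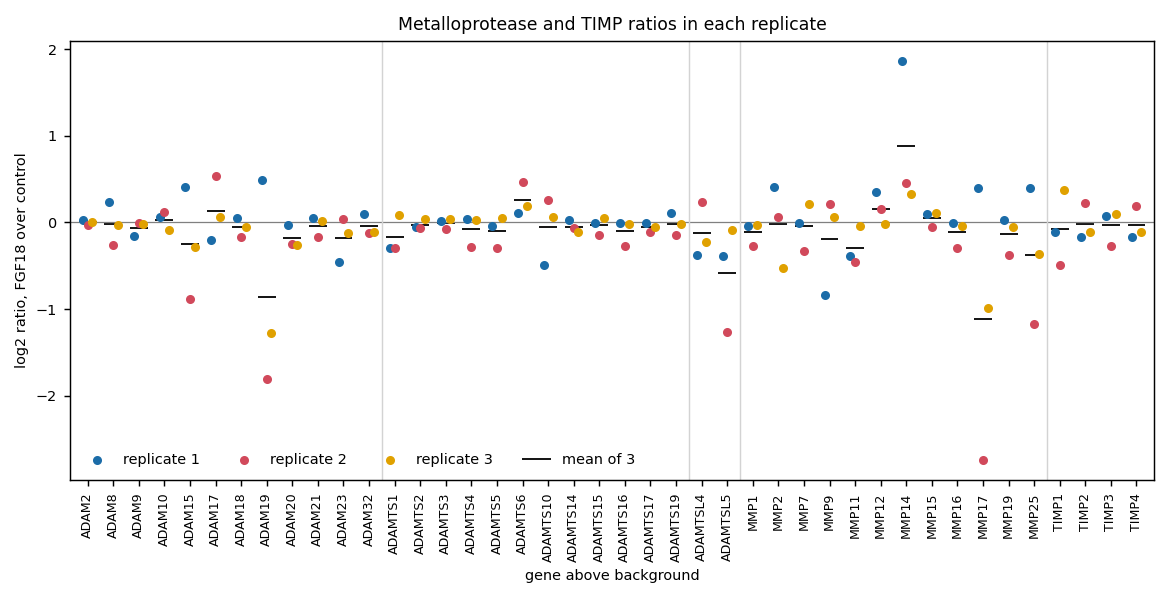
Log2 ratio of FGF18 over control in each of the 3 replicates (coloured points) and their mean (black bars) for the 42 genes above background, ordered by family. Most points lie near 0, while MMP14 reaches 1.87 in replicate 1 and MMP17 reaches -2.74 in replicate 2.

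Of the 6 membrane-bound MMPs on the array 5 were above background. At least 2-fold apart on both arrays of a replicate were 3 of these 5, against 5.75% of all genes above background. They differed in direction, and the share was not tested. MMP14, the membrane-type MMP that activates the gelatinase MMP2, had ratios of 1.90, 0.41 and 0.33 on the arrays with FGF18 in Cy5 in replicates 1, 2 and 3. With the control in Cy5 it had 1.83, 0.51 and 0.31. All 6 arrays were above 0, and both arrays of a replicate gave nearly the same value. The mean was 0.88 ± 0.85 (n = 3, 1.84-fold), with a 95% interval from -0.22 to 1.99 and an adjusted p of 0.986 in limma. Replicate 1 set most of it at 3.64-fold, while replicates 2 and 3 gave 1.37-fold and 1.25-fold, and without replicate 1 the mean was 0.39.

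Its levels show where that difference lay. In normalized log2 intensity MMP14 was 8.01, 10.80 and 10.83 in the controls of replicates 1, 2 and 3, and 9.87, 11.26 and 11.15 with FGF18. The control of replicate 1 was thus the lowest of the 6 values, and the FGF18 value of that replicate stayed below both other controls. The groups overlapped. The median ratio of the 11 granulosa markers above background was 0.03, 0.40 and 0.04 in replicates 1, 2 and 3. Of them 4 were higher and 1 lower in all 3, against 12.5% and 11.1% of all genes above background. The part of these markers in the MMP14 ratio was not tested.

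MMP17 and MMP25, which are held at the membrane by a lipid anchor, ran the other way. MMP17 had 0.59 and 0.21 on the arrays of replicate 1, -2.73 and -2.75 on those of replicate 2, and -0.90 and -1.08 on those of replicate 3. Its mean was -1.11 ± 1.57, with an interval from -3.13 to 0.91, and without replicate 2 it was -0.29. MMP25 had 0.40, -1.17 and -0.36 in the 3 replicates and a mean of -0.38 ± 0.78. Both were higher in replicate 1 and lower in the other two. The leukocyte marker PTPRC, or CD45, had 0.42, -1.46 and -0.90, and the granulosa marker NR5A2 had 0.50, -2.81 and -1.33. This order of signs was shown by 2 of the 7 leukocyte and blood markers above background and by 1 of the 11 granulosa markers, NR5A2 itself. Of all genes above background 15.3% showed it, and the other markers of both lists did not. The part of either marker was not tested. The other membrane-type members stayed close to 0. MMP15 had a mean of 0.05 ± 0.09 and MMP16 had -0.11 ± 0.16, while MMP24 was above background on none of the arrays.

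**Figure D2:**
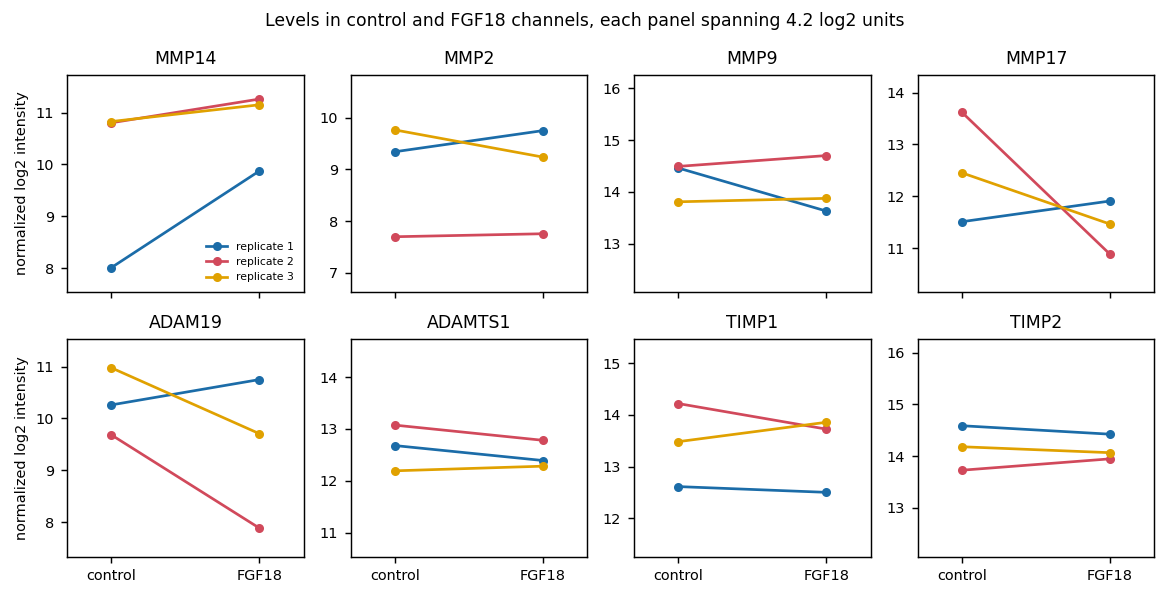
Normalized log2 intensity in control and FGF18 channels for 8 genes, with 1 line for each replicate (mean of 2 arrays). MMP14 slopes upward in all replicates from a control value of 8.01 in replicate 1, MMP17 and ADAM19 slope downward in replicates 2 and 3, and the other 5 genes have lines in both directions.

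The gelatinases MMP2 and MMP9, which degrade denatured collagen and basement membrane collagen, had no common direction. MMP2 had ratios of 0.41, 0.06 and -0.52 in replicates 1, 2 and 3, with a mean of -0.02 ± 0.47. MMP9 had -0.83, 0.21 and 0.07, with a mean of -0.19 ± 0.56 and an interval from -0.92 to 0.55. The MMP9 ratio of replicate 1 was seen on both arrays, at -0.78 and -0.88. Its spots read from 11200 to 30768 in raw intensity, far above the thresholds of 94 to 271. The normalized log2 intensity of MMP2, as the mean of both conditions, was 9.54, 7.73 and 9.50 in the replicates.

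Among secreted MMPs, MMP11, or stromelysin-3, had -0.39, -0.46 and -0.04 in the replicates and a mean of -0.29 ± 0.23, with an unadjusted p of 0.068. It was lower in all 3 replicates but not on all arrays, with 0.25 and -0.32 on those of replicate 3. MMP12, the macrophage elastase, had a mean of 0.16 ± 0.19, and MMP19 had 0.03, -0.38 and -0.05 with a mean of -0.13 ± 0.22. MMP1, an interstitial collagenase, had -0.04, -0.27 and -0.03, with a mean of -0.11 ± 0.14. This averaged 0.11 with FGF18 in Cy5 and -0.33 on the swapped arrays. Each of these genes stayed within 1.5-fold in its mean.

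Several MMP genes lie side by side in the RefSeq annotation of assembly ARS-UCD2.0, a feature the choice of members did not use. MMP13, MMP12, MMP3 and MMP1 follow each other with 0 genes between them, as do MMP27, MMP20 and MMP7. Of these 7 neighbours only MMP12, MMP1 and MMP7 (mean -0.04 ± 0.27) were above background. The collagenase MMP13, the stromelysin MMP3, MMP20, which shapes enamel, and MMP27 were above background on 0 arrays in both conditions, and no ratio is given for them. ADAMTS5 and ADAMTS1 are likewise direct neighbours.

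Among ADAMTS proteases the 12 above background had mean ratios from -0.16 to 0.26, each within 1.5-fold. Only 3 of these 12 were above background in all 12 channels, so a change of 1.5-fold in RNA is not excluded for the others. ADAMTS1, which cuts versican in the ovulating follicle of mice, had -0.29, -0.29 and 0.09 in the replicates, with a mean of -0.16 ± 0.22 and an interval from -0.49 to 0.16. Its normalized log2 intensity was 12.39, 12.78 and 12.28 with FGF18 and 12.68, 13.07 and 12.19 in control. The levels of the groups overlapped across replicates, while the ratios compare them within a replicate. The aggrecanases ADAMTS4 and ADAMTS5 had means of -0.07 ± 0.19 and -0.10 ± 0.18. ADAMTS4 had 0.04, -0.29 and 0.03, and ADAMTS5 had -0.05, -0.29 and 0.05. ADAMTS9, which also cuts versican, was above background on 0 arrays.

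ADAMTS6, a protease linked to fibrillin microfibrils, had 0.08, 0.44 and 0.26 on the arrays with FGF18 in Cy5, and 0.14, 0.49 and 0.13 on those where control RNA carried Cy5. All 6 arrays lay above 0, and the mean was 0.26 ± 0.18, with an interval from -0.03 to 0.54 and an adjusted p of 0.986 in limma. The spots of ADAMTS6 were dim, from 136 to 273 in raw intensity, where the threshold ran from 94 to 271 by array and channel. The procollagen N-proteinases ADAMTS2, ADAMTS3 and ADAMTS14 had means of -0.02 ± 0.06, -0.01 ± 0.06 and -0.05 ± 0.07. ADAMTS10, another microfibril protease, had -0.49, 0.26 and 0.06, and ADAMTS16 and ADAMTS17 were lower in all 3 replicates at means of -0.10 ± 0.15 and -0.06 ± 0.05. For ADAMTS17 this was the average of values on opposite sides of 0. It had 0.16 ± 0.03 with FGF18 in Cy5 and -0.27 ± 0.10 on the swapped arrays. It was above background on only 1 array for FGF18 and 3 for control.

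ADAMTS-like proteins share the accessory domains of the ADAMTS family but have no protease domain. ADAMTSL5 had -0.35, -1.26 and -0.07 where FGF18 RNA carried Cy5, and -0.41, -1.27 and -0.11 on the swapped arrays. It was lower on all 6 arrays, with a mean of -0.58 ± 0.61 (1.49-fold lower), an interval from -1.38 to 0.22 and an adjusted p of 0.986 in limma. Replicate 2 gave the largest difference, and without it the mean was -0.23. ADAMTSL4 had -0.37, 0.23 and -0.23, and ADAMTSL1, ADAMTSL2 and ADAMTSL3 were above background on 0 arrays.

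Among ADAMs with an active site, the widest was ADAM19, which can cut neuregulin. Its arrays gave 0.77 and 0.21 in replicate 1, -1.33 and -2.27 in replicate 2, and -1.10 and -1.44 in replicate 3. The mean was -0.86 ± 1.20, with an interval from -2.40 to 0.68. ADAM15 followed the same order of signs, with 0.41, -0.89 and -0.29 and a mean of -0.25 ± 0.65. In replicate 3 its arrays went opposite ways, at -1.10 with FGF18 in Cy5 and 0.53 on the swapped array.

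ADAM17, the main sheddase of TNF and of EGF-like ligands, had -0.20, 0.53 and 0.06 in the replicates and a mean of 0.13 ± 0.37. Its second probe above background gave -0.05, 0.37 and 0.23, with the same sign as the first in each replicate. ADAM10, which sheds NOTCH and cadherins, had 0.06, 0.13 and -0.08 and a mean of 0.03 ± 0.11. ADAM9 had -0.16, -0.01 and -0.02. ADAM8, best known from leukocytes, had 0.23, -0.26 and -0.03 by its brightest probe, and its other probe gave -0.23, 0.03 and 0.09, with the opposite sign in every replicate. ADAM20 had a mean of -0.18 ± 0.13 and was lower in all 3 replicates, and ADAM21 had -0.04 ± 0.12.

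ADAM2, ADAM11, ADAM18, ADAM22, ADAM23 and ADAM32 lack a working protease site in humans, and several of them are known from sperm or neurons. Of these 6 genes 4 were above background. ADAM23, a neuronal adhesion protein, had -0.46, 0.04 and -0.12 in the replicates, and its other probes had means of -0.07 ± 0.15 and -0.09 ± 0.12. ADAM2, ADAM18 and ADAM32 had means of 0.00 ± 0.03, -0.06 ± 0.11 and -0.05 ± 0.12.

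The inhibitors centred on 0, and all 4 were above background in all channels. TIMP1 had -0.11, -0.49 and 0.37 in replicates 1, 2 and 3, and its mean was -0.08 ± 0.43, with an interval from -0.66 to 0.50. Its other probe followed closely with -0.37, -0.45 and 0.28. TIMP2, which takes part in the activation of MMP2 by MMP14, had -0.16, 0.22 and -0.11 and a mean of -0.02 ± 0.21. TIMP3, the matrix-bound inhibitor that also blocks ADAM17 and the aggrecanases, had 0.08, -0.27 and 0.10 and a mean of -0.03 ± 0.21. TIMP4 had -0.16, 0.19 and -0.11 and a mean of -0.03 ± 0.19. None had 1 sign in all replicates, and the intervals of TIMP2, TIMP3 and TIMP4 lay within 1.5-fold either way. The spots of TIMP3 and TIMP4 were dim, from 105 to 352 and from 133 to 301 in raw intensity. Thresholds ran from 94 to 271, so for these 2 genes a change of 1.5-fold in RNA is not excluded.

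In 5 members, FGF18 and control were at least 2-fold apart on both arrays of at least 1 replicate, or 11.9% against 5.75% of all genes above background. These were MMP14 in replicate 1, MMP17, MMP25 and ADAMTSL5 in replicate 2, and ADAM19 in replicates 2 and 3. In all, 10 genes were higher in replicate 1 and lower in replicates 2 and 3, or 23.8% against 15.3% of all genes. MMP17, ADAM19, MMP25, ADAM15, ADAM8 and MMP19 were among them, and the others were ADAM18, ADAM32, ADAMTS14 and ADAMTS19. For ADAM8 this holds for its brightest probe only, as its other probe had the opposite signs. MMP19, ADAM18 and ADAMTS14 were only at 0.03, 0.05 and 0.03 in replicate 1. The ratios of ADAM15, ADAM19, ADAM8, ADAM18 and ADAMTS19 also differed between dye orientations, as given below. Neither share was tested.

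**Figure D3:**
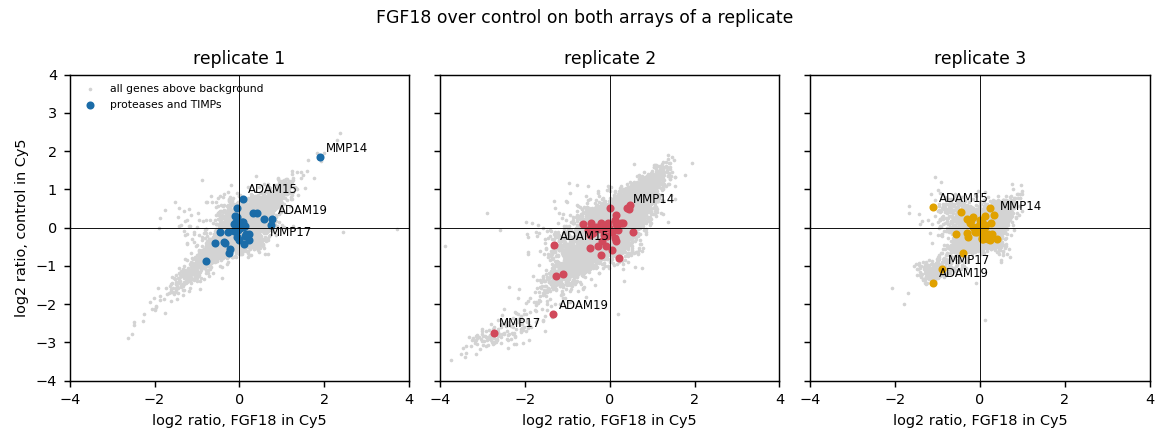
Log2 ratio of FGF18 over control on the array with FGF18 in Cy5 (horizontal axis) against that with the control in Cy5 (vertical axis), in 1 panel for each replicate. Grey points are the 12200 genes above background and coloured points the 42 proteases and inhibitors. MMP14 in replicate 1 and MMP17 in replicate 2 lie near the diagonal at the edge of the cloud, and ADAM15 in replicate 3 lies off it.

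How well the arrays of a replicate agreed differed between replicates. Across the 42 genes, which share libraries and arrays, the 2 arrays correlated at 0.75, 0.79 and 0.35 in replicates 1, 2 and 3, against 0.75, 0.83 and 0.41 across all genes above background. Without the 5 genes that were 2-fold apart, the values for the other 37 were 0.46, 0.31 and -0.32. Leaving out genes picked for large differences on both arrays tends to lower a correlation by construction. No such genes were left out of the values across all genes. Between replicates the 42 genes correlated at -0.15 for replicates 1 and 2, -0.16 for 1 and 3, and 0.70 for 2 and 3. Across all genes above background these were -0.265, -0.07 and 0.40. For replicates 2 and 3 the value was -0.004 over the 37. These correlations are descriptions across genes and carry no test.

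Many members depended on which dye the FGF18 sample carried. In a limma fit over the 6 arrays with the replicate number as a block, 19 of the 42 genes, or 45.2%, differed between the orientations at an adjusted p under 0.05, against 39.9% of all genes. The share is near that of the array. With FGF18 in Cy5 the ratio was higher for 9 and lower for 10. The largest was ADAM15, with -0.78 ± 0.75 when FGF18 was in Cy5 and 0.27 ± 0.64 when the control was (n = 3 arrays each, adjusted p = 0.000265). ADAMTS5 had 0.28 ± 0.10 and -0.47 ± 0.28, so its mean near 0 was the average of values on opposite sides. TIMP2 had 0.24 ± 0.27 and -0.28 ± 0.16.

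MMP14, ADAMTS6 and ADAMTSL5, the genes with 1 sign on all arrays, had differences between orientations of -0.01, 0.01 and 0.03. The size of the orientation term exceeded that of the mean ratio in 29 of the 42 genes, or 69% against 60.7% of all genes above background. By the deposited names the 2 orientations lay on 2 slides, 1 for each, and an effect of dye cannot be told apart from one of slide. An effect of equal size in both orientations cancels in the mean of a replicate.

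**Figure D4:**
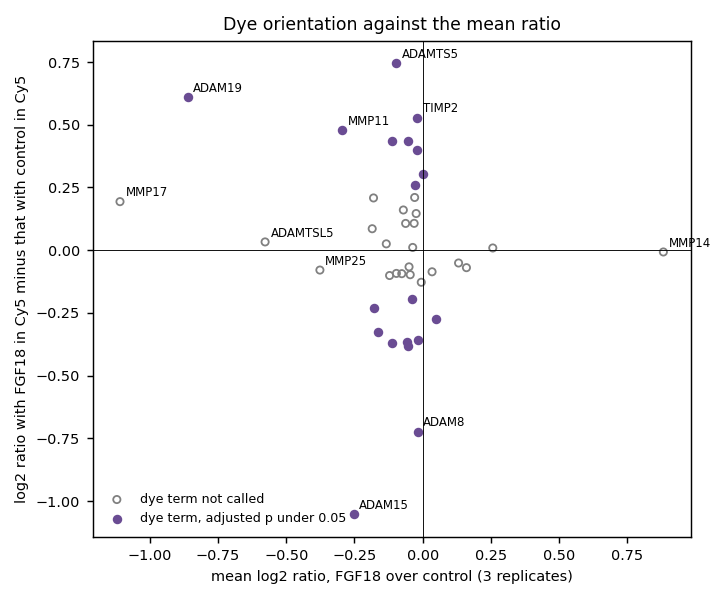
Difference between orientations (log2 ratio with FGF18 in Cy5 minus that with the control in Cy5, vertical axis) against the mean log2 ratio over 3 replicates (horizontal axis) for the 42 genes. Filled points are the 19 genes called in the orientation test, from ADAM15 at -1.05 to ADAMTS5 at 0.74, while MMP14 sits at -0.01.

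Levels also differed between replicates in both conditions together. Averaged over FGF18 and control, MMP14 was at 8.94, 11.03 and 10.99 in normalized log2 intensity in replicates 1, 2 and 3, a range of 4.26-fold. TIMP1 was at 12.56, 13.97 and 13.67, and ADAM19 was at 10.51, 8.78 and 10.34. With MMP2 and ADAM15 these were the 5 genes whose level ranged at least 2-fold, or 11.9% against 9.26% of all genes. For 14 genes, or 33.3% against 46.1% of all genes, and TIMP1, TIMP2, MMP2 and ADAMTS1 included, the range between replicates exceeded the largest FGF18 ratio of any replicate. Both channels of an array share its hybridisation, so cells and arrays cannot be told apart in these levels.

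Other genes of extracellular proteolysis were set beside the members, from lists of regulators, matrix substrates and shed substrates. Of 15 regulators and helpers above background 3 were higher and 3 lower in all replicates, with 0 past the adjusted threshold and a median of -0.05. Over all genes above background 12.5% were higher and 11.1% lower in all replicates. The largest was POFUT2, which adds fucose to the thrombospondin repeats that ADAMTS proteases carry, at 1.53, 1.15 and 0.68. THBS1, or thrombospondin 1, had -0.66, -0.50 and -0.35, with a mean of -0.50 ± 0.15, the same sign on all 6 arrays and an adjusted p of 0.986 in limma. TSPAN14, a tetraspanin that escorts ADAM10, had 0.14, 0.21 and 0.19. FURIN, which removes the prodomain of many of these proteases, was lower on all 6 arrays by a small amount, with a mean of -0.08 ± 0.05.

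Of 16 matrix substrates 3 were higher and 1 lower in all replicates, against 12.5% and 11.1% of all genes above background. There were 0 called, and the median was 0.05. VCAN, or versican, the ADAMTS1 substrate, spread widely at -0.88, 1.12 and 0.30. COL4A2, a basement membrane collagen chain, had 0.39, 0.09 and 0.26. Of 17 shed substrates 0 were higher and 2 lower, against the same shares of all genes, with 0 called and a median of -0.03. BTC, an EGF-like ligand, had -0.45, -0.37 and -0.11, and AREG had 0.05, -0.03 and 0.10. NOTCH1, a substrate of ADAM10, had 0.36, -2.53 and -1.20, with the signs and order of MMP17 (0.40, -2.74 and -0.99) and ADAM19 (0.49, -1.80 and -1.27). Only 2 of the 17 shed substrates were higher in replicate 1 and lower in replicates 2 and 3, against 15.3% of all genes above background. A link between NOTCH1 and these proteases was not tested.

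**Figure D5:**
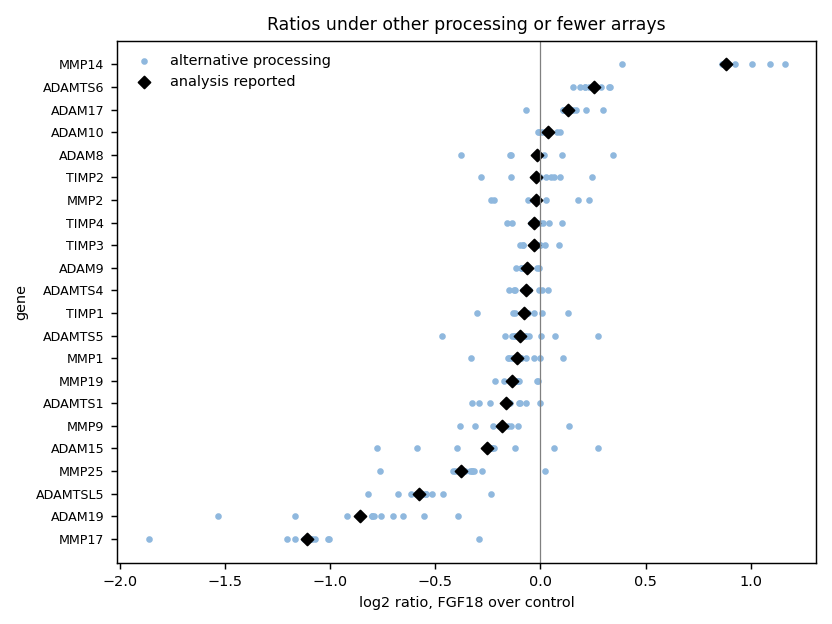
Log2 ratio of FGF18 over control in the analysis reported (black diamonds) and in each of 21 alternatives with other processing, other fits or fewer arrays (blue points) for 22 named genes. MMP14 stays between 0.39 and 1.16 and MMP17 between -1.86 and -0.29, while most other genes have points on both sides of 0.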

How the data were processed

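The deposited scanner files hold, per the file headers, the mean intensity of each spot and its median background at both wavelengths, with no normalization. The authors' deposited log2 ratios (step and tools not given in the sources used here) correlated at 1 with plain background subtraction and loess on each array, as FGF18 over control.

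The fits used limma 3.58.1 under R 4.3.3. After normexp background correction (offset 50), each array was loess-normalized (span 0.3), with 1418 control spots and 8 unlabelled spots given no weight. All ratios have FGF18 as numerator. Arrays sharing a title number gave 1 replicate by averaging, and lmFit and eBayes tested the mean of 3 replicates against 0 for 15229 genes. Of 43794 probes 21790 carry a symbol. All 60 symbols matched RefSeq. Detection used 153 negative control spots. Levels are separate channels after loess and Aquantile. FGF18 and control of the same title number share arrays, and they are taken as paired for that reason. Their levels deviated together (correlations of 0.49, 0.47 and 0.50). Sharing an array can give this by itself, so it does not show whether the cells were paired. The smallest p of an exact sign-change test on 3 replicates is 0.25, and it was not run.

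Values in every replicate are printed for the TIMPs, a panel of 16 genes, genes of 1 sign on all 6 arrays (at most 6 in each direction), the 4 of largest SD and any of unadjusted p under 0.05. MMP11, ADAMTS10, ADAMTSL4 and ADAM23 were added after their values were seen. The members, lists and tests were chosen with earlier results of these data known. The search of protein sequences for motifs was not run. The fit was tested on simulated data. Alternatives changed background, normalization, filter, probe rule, replicates, channels, orientation and variance prior.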

Additional observations from a re-analysis of the deposited data

Results flagged for a closer look

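For 19 of the 42 genes above background the FGF18 ratio differed between dye orientations at an adjusted p under 0.05 in limma, with the replicate number as a block. The values below are the log2 ratio with FGF18 in Cy5 minus that with the control in Cy5, over 3 arrays each. Among ADAMs the difference was -1.05 for ADAM15, -0.72 for ADAM8, -0.38 for ADAM18, -0.23 for ADAM20, 0.30 for ADAM2 and 0.61 for ADAM19. Among ADAMTS proteases it was 0.74 for ADAMTS5, 0.44 for ADAMTS17, -0.33 for ADAMTS1, -0.37 for ADAMTS10 and -0.36 for ADAMTS19. Among MMPs it was 0.48 for MMP11, 0.44 for MMP1, 0.40 for MMP2, -0.37 for MMP16, -0.28 for MMP15 and -0.19 for MMP7. TIMP2 differed by 0.53 and TIMP4 by 0.26.

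In 9 of the 42 genes all arrays of 1 orientation lay on 1 side of 0 and all of the other on the opposite side, or 21.4% against 10.9% of all genes above background. The count of 19 was 16 to 19 under the other background corrections, normalizations, filters and probe rules, and with the authors' deposited ratios. Whether dye or slide moves with these values cannot be told apart.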

How the results depend on the processing

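In all 21 alternatives 0 genes and 0 members passed the adjusted threshold in limma, the paired fit on separate channels with a replicate block included, which repeats the analysis reported by construction. Of 22 named genes above background 8 kept their direction in all 21. Several of the 21 change only the variance, the filter or the scaling between arrays. These leave each mean ratio as it is and cannot turn a sign. At an unadjusted p under 0.05, 0 of the 42 members passed in the analysis reported. The count was 1 with plain background subtraction, with no background correction, with median centring and with the authors' deposited ratios, 2 with a trend and robust prior, and 4 with 6 arrays as independent, with duplicateCorrelation and with orientation as a term. It was 3 with FGF18 in Cy5 alone, 5 with the control in Cy5 alone, and 1 to 3 with a replicate left out. Members higher in all replicates, 2 as reported, numbered 7 with FGF18 in Cy5 alone, 9 with the control in Cy5 alone and 5 to 8 with a replicate left out. Those lower, 8 as reported, numbered 5 with median centring and 12 to 18 with a replicate left out. Fewer arrays or replicates make 1 sign easier to keep by construction. The median of the TIMPs, -0.03, was 0.0617 with FGF18 in Cy5 alone and -0.12 in the swapped arrays alone. Signs of named genes turned with FGF18 in Cy5 alone for ADAMTS5 (0.28), MMP1 (0.11) and TIMP2 (0.24), which moved by over 1 SD, and for MMP2 (0.18), TIMP4 (0.10), TIMP3 (0.02), ADAMTS4 (0.01) and ADAM10 (-0.01), which moved by less. In the swapped arrays alone they turned for ADAM8 (0.34), by over 1 SD, and for ADAM15 (0.27), by less. Whether dye or slide is behind this was not tested. Leaving out a replicate also turned signs, among them those of genes that turned in neither orientation alone. These were MMP9 (0.14) without replicate 1, and ADAM17 (-0.07), MMP25 (0.02) and TIMP1 (0.13) without replicate 2. The alternative without the control-in-Cy5 array of replicate 2 was chosen after seeing the data. Signal near background limits 17 of the 42 genes, which were not above it in every channel. It also limits dim genes that were, such as ADAMTS6, TIMP3 and TIMP4.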
